A study of Gallus gallus with 2 samples.

Results

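Genes that move ions, acid and base equivalents and water across the ileal epithelium were compared between chickens fed paddy rice and chickens fed corn. The genes were 44 transporters, channels, carbonic anhydrases and their regulators listed by name, and 42 of them had at least 1 probe set given to a single gene, out of 13050 named genes on the array. PDZK1, a scaffold of brush border transporters, and KCNN4, a calcium-activated potassium channel, matched no probe set by symbol or alias. A probe set is a group of short DNA probes made to read a transcript. Each gene was read by whichever of its probe sets was brightest over both arrays (by mean log2 signal). For 16 of the 42 genes the name of that probe set marked it as shared, which means that it can read more than 1 transcript.

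The birds fed paddy rice were White Leghorn male chicks given a diet with 650 g/kg of ground paddy rice for 2 wk, between 1 and 3 wk of age, and the control birds of the same age had 650 g/kg of ground corn in its place. Total RNA from 3 birds of the 9 in each group was pooled for 1 array per diet, the birds being those whose ileal MUC2 level lay near the group average. Both diets carried the same mineral mixture, with its sodium, potassium and chloride salts, while crude protein and metabolizable energy were not matched between them. The grains also differed: paddy rice had more crude ash and crude fiber than corn, and less crude fat. The ileal segments were flushed and taken whole, so that muscle, vessels and nerves were read together with the epithelium.

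Electroneutral absorption of salt in the small intestine pairs an apical sodium-proton exchanger with an apical chloride-bicarbonate exchanger, and carbonic anhydrases supply the protons and bicarbonate. The sodium-potassium pump on the basolateral side keeps the sodium gradient. Secretion runs the other way: chloride enters through a basolateral cotransporter, leaves through apical channels such as CFTR, and depends on basolateral potassium channels that hold the membrane voltage. Water follows the salt, partly through aquaporins.

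The values are MAS5 signals, which are linear intensities that the authors scaled to the same trimmed mean on each array. Each ratio has paddy rice over corn, and ratios above 1.5 or below 0.67 were counted, which are the thresholds of the paper. No filter on signal came before the main count. The paper reports far fewer genes past these thresholds than were counted here, so the shares below are not those of the paper. Because each diet has a single array, replicate error is unknown, nothing was tested and no p-value is given. Bands of signal are used, a bright band from the 75th percentile of chicken probe sets upward (522), a middle band down to the median (111) and a dim band under it. The only measure of error on these arrays is the disagreement between probe sets of the same gene. Its SD on the log2 scale was 0.27 in the middle and bright bands together (4020 genes) and 0.16 in the bright band alone (1661 genes). Over the transport genes it was 0.20 (18 genes) and 0.19 (8 genes) in the same order. Probe sets of a gene read the same pooled RNA, so this SD holds no variation between birds, pools or arrays and does not measure the error of a diet ratio. The level taken as background was a signal of 45.1 on paddy rice and 44.1 on corn, and a gene with both signals at or under it is given by its signals, with no fold. Signals of different probe sets depend on their probes, so no gene's level was set against that of another gene.

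The arrays read intestinal epithelium together with the other layers of the wall. All 6 enterocyte markers (VIL1, FABP2, FABP6, ANPEP, CDH17 and EPCAM) were in the bright band, with ratios between 0.940 and 1.12, and their summed signal was 133216 on paddy rice and 133911 on corn. The summed signal of 5 smooth muscle markers was 45621 on paddy rice and 46012 on corn. In a pooled tissue, fewer cells of a type and less RNA per cell cannot be told apart. The ratio of 3′ to 5′ signal of beta-actin, a measure of RNA quality, was 1.52 on paddy rice and 1.51 on corn.

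Most of the transport genes had ratios between the thresholds. Of the 42 genes, 37 lay between the thresholds, 2 were above 1.5 (SLC4A9 and CLCN2) and 3 were below 0.67 (SLC26A6, SLC26A4 and SCNN1B). The shares of 4.76% above and 7.14% below were under those of all named genes, of which 8.28% were above and 8.64% below. The median log2 ratio of the 42 genes was -0.044, against -0.0029 over all named genes, and 24 had ratios below 1 while 18 had ratios above 1.

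How often a gene passed a threshold depended on its signal, so the counts were also read within bands of signal. The bright band held 23 of the transport genes, their ratios ran between 0.748 and 1.14, and none passed a threshold, where 0.622% of all named genes of that brightness were above 1.5 and 0.328% were below 0.67. In the middle band, 1 of 14 was above and 1 was below, against 3.98% and 4.03% of all named genes. In the dim band, 1 of 5 was above and 2 were below, against 23.9% and 25.5% of all named genes. The 5 genes past a threshold therefore all came from the lower and middle parts of the signal range, where ratios past a threshold were more frequent over the whole array than in the bright band. The median size of the log2 ratio, without its sign, was 0.11 for the 23 brightest transport genes and 0.098 for all named genes in the same band. It was 0.28 for the 14 transport genes of the middle band and 0.20 for all named genes there. In the dim band it was 0.78 for 5 transport genes, 3 of them with both signals under background, and 0.57 for all named genes. Over all bands it was 0.16 for the 42 transport genes and 0.18 for all named genes.

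**Figure D1:**
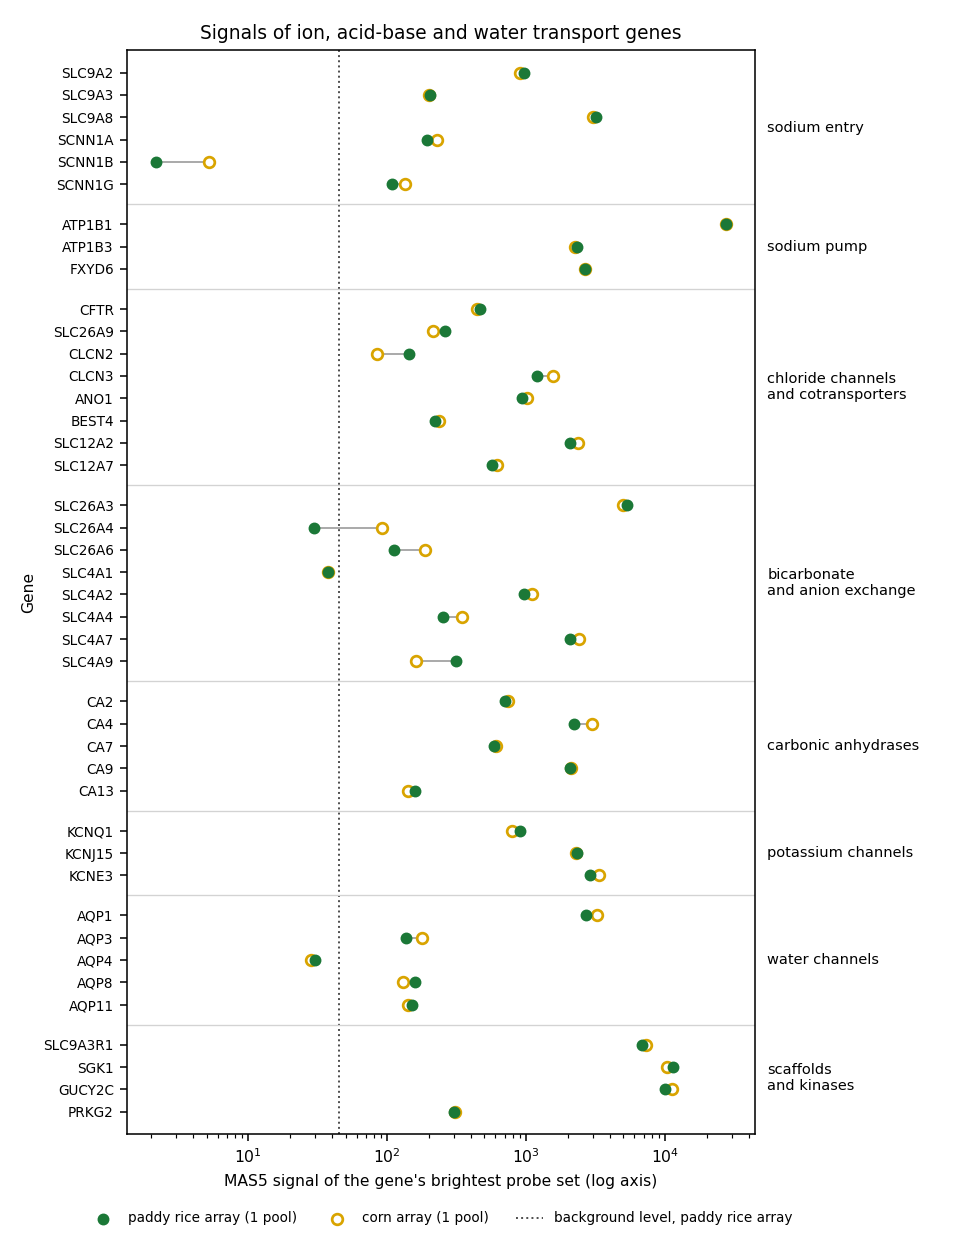
MAS5 signal of the brightest probe set of each of 42 transport genes (log axis) on the paddy rice array (filled green points) and the corn array (open yellow points), 1 pool of 3 birds each, grouped by route; the dotted line is the background level of 45.1 on the paddy rice array. Both points lie close together for most genes, they are widely separated for SCNN1B, CLCN2, SLC26A4, SLC26A6 and SLC4A9, and positions of different genes are not comparable as levels.

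The apical sodium-proton exchangers had ratios close to 1 on their brightest probe sets. SLC9A3, the main sodium-proton exchanger of the brush border in mammals, had a signal of 204 on paddy rice and 199 on corn, a ratio of 1.02, and a ratio of 0.907 on its second probe set. SLC9A2, another exchanger of the apical membrane, had 963 on paddy rice and 895 on corn, a ratio of 1.08, but 581 on paddy rice and 811 on corn on its second probe set, a ratio of 0.717. The probe sets of SLC9A2 thus lay on opposite sides of 1, and they read no common direction. SLC9A8, an exchanger found on the Golgi and the apical membrane in mammals, had 3150 on paddy rice and 3032 on corn, a ratio of 1.04, and its dimmer probe set was at 0.980.

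The epithelial sodium channel, which lets sodium in without an exchange for protons, is made of the products of SCNN1A, SCNN1B and SCNN1G. SCNN1A, the alpha subunit, had signals of 191 on paddy rice and 229 on corn, a ratio of 0.835, and its second probe set was at 0.774. SCNN1G, the gamma subunit, had 108 on paddy rice and 135 on corn at its brightest probe set, which makes 0.796, and 121 on paddy rice and 113 on corn on the next, a ratio of 1.07. The dimmest probe set of SCNN1G had 10.7 on paddy rice, under background, and 46.7 on corn, just over it. SCNN1B, the beta subunit, had a signal of 2.16 on paddy rice and 5.20 on corn, both far under background, so that its place below 0.67 gives no measured fold. SCNN1B and SCNN1G are next to each other among the protein-coding genes of the chicken assembly GRCg7b, and of the pair only the gamma subunit had signals above background on both diets. Without SCNN1B the median log2 ratio of sodium entry genes was 0.035 over 5 genes, against -0.11 over all 6.

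The sodium pump genes had ratios between 0.992 and 1.04, the narrowest range of the routes compared. ATP1B1, the beta subunit found with the pump in most epithelia, had a signal of 27179 on paddy rice and 27385 on corn, a ratio of 0.992. ATP1B3, another beta subunit, had 2328 on paddy rice and 2245 on corn, a ratio of 1.04, and 1.07 on its second probe set. FXYD6, of a family of small proteins that tune the pump, had 2651 on paddy rice and 2650 on corn, a ratio of 1.00, and 3 further probe sets with both signals under background. All 3 pump genes were in the bright band. The SD between probe sets of a gene was 0.16 there over all named genes and 0.19 over the transport genes.

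Of the chloride genes, CLCN2 was above 1.5 and the 7 others lay between the thresholds. Over all named genes 8.28% were above 1.5 and 8.64% below 0.67. In the dim band, which held CLCN2, these shares were 23.9% and 25.5%. CLCN2, a voltage-gated chloride channel of epithelial membranes, had a signal of 143 on paddy rice and 83.7 on corn at its brightest probe set, which makes 1.71. The second probe set of CLCN2 had 59.7 on paddy rice and 70.7 on corn, a ratio of 0.844, so that the higher value on paddy rice stood on 1 of its 2 probe sets. Both of them lay below the median signal, and the median of the 2 gave a ratio of 1.20. CLCN3, a chloride-proton exchanger of endosomes, had 1198 on paddy rice and 1543 on corn, a ratio of 0.776, while its other probe sets were at 1.02 and 0.945.

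On their brightest probe sets, CFTR, SLC12A2, SLC12A7 and SLC26A9 had ratios between 0.878 and 1.22, on either side of 1. CFTR, the apical chloride and bicarbonate channel opened by cyclic nucleotides, had a signal of 464 on paddy rice and 445 on corn, a ratio of 1.04, and no second probe set. SLC12A2, the basolateral sodium-potassium-chloride cotransporter that loads the cell with chloride, had 2058 on paddy rice and 2343 on corn, a ratio of 0.878. SLC12A7, a potassium-chloride cotransporter that lets chloride out, had 563 on paddy rice and 612 on corn, a ratio of 0.919, but 1.18 on a second probe set of like signal. The remaining probe sets of SLC12A7 had signals at or under 31.4 and were not measured above background. SLC26A9, an epithelial chloride transporter and channel, had 260 on paddy rice and 212 on corn, a ratio of 1.22, and 1.02 on the only other probe set above background.

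ANO1, a calcium-activated chloride channel, and BEST4 were close to 1. ANO1 had a signal of 936 on paddy rice and 1007 on corn, a ratio of 0.929, and the highest of its 3 probe sets was at 0.974. ANO1 is carried by epithelial cells and also by the interstitial cells of Cajal, the pacemaker cells of gut muscle, whose markers KIT and ETV1 were at 1.08 and 0.946 with a summed signal of 1807 on paddy rice and 1817 on corn. The part of those cells in the ANO1 signal was not tested. BEST4, an anion channel that marks a subset of absorptive cells in the human intestine, had 222 on paddy rice and 234 on corn, a ratio of 0.947.

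Of the 8 exchangers and cotransporters of bicarbonate, 1 was above 1.5 and 2 were below 0.67, where 8.28% and 8.64% of all named genes were, and SLC26A4, 1 of these 3, lay in the dim band. SLC26A3, the chloride-bicarbonate exchanger whose loss causes chloride diarrhoea in humans, was not among them. It had a signal of 5330 on paddy rice and 4963 on corn, a ratio of 1.07, and its second probe set was at 1.01. SLC26A6, an apical exchanger of chloride for bicarbonate or oxalate, had 113 on paddy rice and 186 on corn, a ratio of 0.606, with a single probe set to read it. Both signals of SLC26A6 were above background, and its probe set is not one of those that several transcripts share. No other probe set was given to this gene alone.

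SLC26A4, the exchanger pendrin, had a signal of 29.8 on paddy rice and 91.8 on corn on its only probe set. The paddy rice signal was under background. With the background level put in its place, the signal was 2.04-fold higher on corn. This value takes no account of replicate error and is no lower limit for the difference between diets. With the 25th percentile of all signals (34.5) added to both, the ratio of SLC26A4 was 0.509, against 0.325 without it. In GRCg7b, SLC26A4 and SLC26A3 are separated by a single protein-coding gene, CBLL1, and their ratios lay on opposite sides of 1.

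Of the 5 listed members of the SLC4 family, which carries bicarbonate across mainly basolateral membranes, SLC4A9 was past a threshold. It lay in the middle band, where 3.98% of all named genes were above 1.5 and 4.03% below 0.67. SLC4A9, a family member studied mostly in kidney, had a signal of 310 on paddy rice and 160 on corn at its brightest probe set, which makes 1.94, and 106 on paddy rice and 86.8 on corn on its second, a ratio of 1.22. Both probe sets were higher on paddy rice, by different amounts. Each can read more than 1 transcript by its name, so that without shared probe sets SLC4A9 had none left.

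SLC4A4 and SLC4A7, which carry sodium with bicarbonate, were lower on paddy rice on each probe set above background, and they were singled out after the values had been seen. SLC4A4, the electrogenic cotransporter that loads bicarbonate from the blood side, had a signal of 253 on paddy rice and 342 on corn, a ratio of 0.740, and its other probe sets were at 0.876 and 0.829. SLC4A7, an electroneutral cotransporter, had 2053 on paddy rice and 2385 on corn, a ratio of 0.861, and 0.971 on its next probe set, while a dim one had 32.4 on paddy rice and 49.6 on corn. Neither gene passed a threshold. On the scale of log2 ratios SLC4A4, in the middle band, was at -0.43 and SLC4A7, in the bright band, at -0.22. Over all named genes, the SD between probe sets of a gene was 0.27 in the middle and bright bands together and 0.16 in the bright band alone. Over the transport genes it was 0.20 and 0.19.

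The anion exchangers of the SLC4 family had no common direction. SLC4A2, the exchanger that takes chloride up across the basolateral membrane, had a signal of 963 on paddy rice and 1095 on corn, a ratio of 0.880, and 153 on paddy rice and 113 on corn on its second probe set, a ratio of 1.36. SLC4A1, the exchanger of red blood cells, had 37.64 on paddy rice and 37.59 on corn, both under background. Of 7 red blood cell markers 3 were measured. HBA1, in the bright band, had 774 on paddy rice and 794 on corn, a ratio of 0.976. The 2 others, EPB42 and SPTB, lay in the dim band. EPB42 had 11.6 on paddy rice, under background, and 50.2 on corn. SPTB was at 1.34, but the median over its 5 probe sets was 0.710. The part of red blood cells in the SLC4A1 signal was not tested. The median log2 ratio of the 8 bicarbonate genes was -0.20, and it was -0.064 when each gene took the median of its probe sets.

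**Figure D2:**
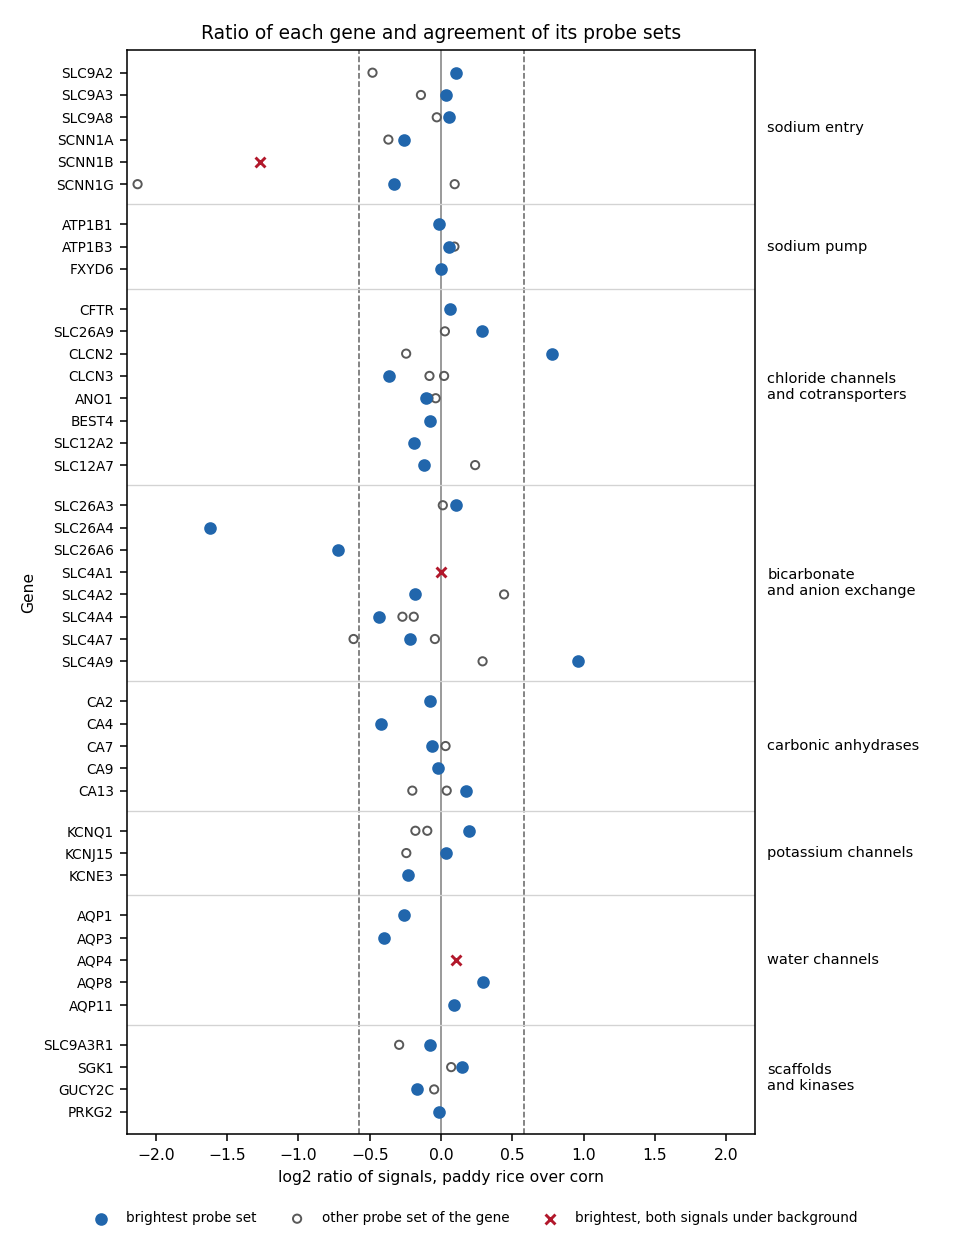
log2 ratio of signals, paddy rice over corn, of each transport gene on its brightest probe set (filled), on its other probe sets (open circles) and on a brightest probe set with both signals under background (crosses), with dashed lines at ratios of 0.67 and 1.5. The 12 other probe sets with both signals under background are left out, and the open circles show that CLCN2 had probe sets on either side of 0 while SLC4A4 and SLC4A7 had all of theirs below it; SLC26A4 is drawn at its measured signals, although that on paddy rice was under background.

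None of the 5 listed carbonic anhydrases was past a threshold, where 8.28% of all named genes were above 1.5 and 8.64% below 0.67. Ratios below 1 were found for 4 of the 5. CA4, the enzyme anchored on the outer face of the membrane, had a signal of 2216 on paddy rice and 2963 on corn, a ratio of 0.748, the lowest of the transport genes in the bright band. Its log2 ratio was -0.42, and CA4 was read by a single, shared probe set. The SD between probe sets of a gene was 0.16 over all named genes of that band and 0.19 over its transport genes. Neither SD holds variation between birds. CA2, the abundant enzyme of the cytosol, had 706 on paddy rice and 744 on corn, a ratio of 0.949.

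On their brightest probe sets, the other 4 listed carbonic anhydrases had log2 ratios between -0.076 for CA2 and 0.17 for CA13. CA9, a membrane enzyme with its active site outside the cell, had a signal of 2069 on paddy rice and 2098 on corn, a ratio of 0.986. CA7, a cytosolic enzyme, had 582 on paddy rice and 610 on corn, a ratio of 0.955, and its next probe set was at 1.02. CA13, also cytosolic, had 159 on paddy rice and 141 on corn, a ratio of 1.13, and its dimmer probe sets were at 1.03 and 0.870. CA13 and CA2 lie close together in GRCg7b, with only CA3A and CA3B between them, and their ratios were on opposite sides of 1. The median log2 ratio of the 5 enzymes was -0.067.

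The potassium channel subunits that support secretion had ratios on opposite sides of 1. KCNQ1, the basolateral channel, had a signal of 904 on paddy rice and 790 on corn, a ratio of 1.14, the highest of the transport genes in the bright band, but its dimmer probe sets were at 0.935 and 0.883. KCNE3, the subunit that holds the KCNQ1 channel open in intestinal cells, had 2851 on paddy rice and 3353 on corn, a ratio of 0.850, with no second probe set. With the median over its probe sets, KCNQ1 was at 0.935, on the same side of 1 as KCNE3. KCNJ15, an inward rectifier, had 2316 on paddy rice and 2261 on corn, a ratio of 1.02, and 0.845 on its second probe set.

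Of the water channels, AQP3 and AQP1 had lower signals on paddy rice, and AQP8 and AQP11 had higher ones. None of the 5 listed water channels was past a threshold, where 8.28% of all named genes were above 1.5 and 8.64% below 0.67. AQP1, a water channel of vessels and red blood cells as well as epithelia, had a signal of 2683 on paddy rice and 3207 on corn, a ratio of 0.837. The 5 endothelial markers (PECAM1, CDH5, VWF, KDR and TEK) were all above background. PECAM1 had 570 on paddy rice and 958 on corn, a ratio of 0.595. CDH5, VWF, KDR and TEK were nearer to 1, with ratios of 1.06, 1.01, 0.967 and 0.901. The part of vessels in the AQP1 value was not tested. AQP3, a channel for water and glycerol on the basolateral side, had 136 on paddy rice and 179 on corn, a ratio of 0.759.

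AQP8, a channel for water and ammonia, had a signal of 158 on paddy rice and 129 on corn, a ratio of 1.23, and a second probe set with 34.3 on paddy rice and 2.46 on corn, both under background. AQP11, a channel of intracellular membranes, had 151 on paddy rice and 142 on corn, a ratio of 1.06. AQP4, a channel of glia and of some epithelia, had 30.3 on paddy rice and 28.2 on corn and was not measured above background on either diet. Of 6 markers of enteric neurons and glia 4 were measured, all above background. S100B had 1092 on paddy rice and 1856 on corn, a ratio of 0.588. SOX10, ELAVL4 and RET were nearer to 1, with ratios between 0.937 for SOX10 and 1.01 for RET. The part of enteric neurons and glia in the AQP4 signal was not tested. The median log2 ratio of the 5 aquaporins was 0.090, and it was -0.084 over the 4 without AQP4. The direction of that median therefore turned on a gene without a measured level.

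The guanylin receptor and its kinase, which hold back sodium absorption and open CFTR in mammals, were close to 1. GUCY2C, the receptor, had a signal of 9916 on paddy rice and 11140 on corn, a ratio of 0.890, and 0.967 on its second probe set. PRKG2, the cyclic GMP-dependent kinase that acts after it, had 301 on paddy rice and 304 on corn, a ratio of 0.988. GUCA2B, the gene of a hormone that binds the receptor, had 36816 on paddy rice and 37744 on corn, a ratio of 0.975. The log2 ratios of the receptor, the hormone and the kinase were -0.17, -0.036 and -0.017 in that order. The SD between probe sets of a gene was 0.16 over all named genes of the bright band and 0.19 over its transport genes. That band held the receptor and the hormone. In the middle and bright bands together the SD was 0.27 over all named genes and 0.20 over the transport genes. The kinase was in the middle band.

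The regulators of the sodium-proton exchanger and of the sodium channel were also between the thresholds. SLC9A3R1, the scaffold that ties SLC9A3 and CFTR to ezrin, had a signal of 6845 on paddy rice and 7228 on corn, a ratio of 0.947, and 0.816 on its second probe set. SGK1, a kinase induced by corticosteroids that raises sodium channel and exchanger activity, had 11322 on paddy rice and 10211 on corn, a ratio of 1.11, and 1.05 on its second probe set. NR3C2, the mineralocorticoid receptor, which is no member of the 44, had 2431 on paddy rice and 3073 on corn, a ratio of 0.791. NEDD4L, a ubiquitin ligase that removes the sodium channel from the membrane, was at 1.11, and its 5 probe sets ran between 0.866 and 1.11.

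**Figure D3:**
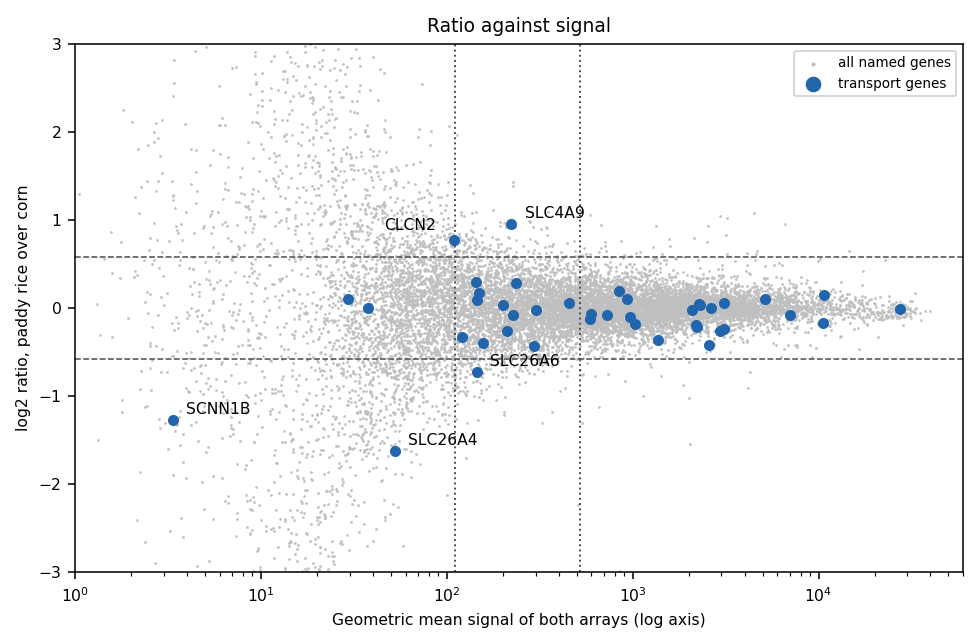
log2 ratio, paddy rice over corn, against the geometric mean signal of both arrays (log axis) for all named genes (grey) and the 42 transport genes (blue), with dashed lines at ratios of 0.67 and 1.5 and dotted lines at the median and the 75th percentile of signal. The grey cloud widens toward low signals, the 5 labelled genes past a threshold lie in its left and middle part, and 143 named genes with log2 ratios beyond 3 either way are not drawn.

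A wider list of ion and water transport genes held 17 genes past a threshold. Of 77 more names, 61 genes were measured, of which 5 were above 1.5 (8.20%) and 12 were below 0.67 (19.7%), where 8.28% and 8.64% of all named genes were. In the middle and bright bands 3 of 43 were above and 3 below (6.98% each), against 1.88% above and 1.72% below among all named genes of those bands. All 6 of these lay in the middle band, where the wider list had 20 genes. In the dim band 2 of 18 were above (11.1%) and 9 were below (50.0%), against 23.9% and 25.5%, and 4 of these 11 had both signals under background. The list was chosen with earlier results of these data known, and nothing particular to it is read from the shares. The median log2 ratio of the 43 was 0.016. BEST1, a calcium-activated anion channel related to BEST4, had 210 on paddy rice and 98.5 on corn, a ratio of 2.13, and the median over its 2 probe sets was 1.26. KCNE2, a subunit that also joins KCNQ1, had 307 on paddy rice and 180 on corn, a ratio of 1.71, and the median over its 2 probe sets was also 1.71. The sulfate transporter SLC26A2 was at 1.51 on a single shared probe set.

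The 3 genes of the wider list that were below 0.67 in these bands all lay in the middle one. SLC9A9, a sodium-proton exchanger of endosomes, had 196 on paddy rice and 310 on corn, a ratio of 0.632, but 1.21 on another probe set of the same bands. CLIC3, of a family of intracellular chloride channel proteins, had 322 on paddy rice and 488 on corn, a ratio of 0.661. AQP7, a channel for glycerol and water, had 119 on paddy rice and 199 on corn, a ratio of 0.600, while its other probe set of these bands was at 3.94. AQP7 and AQP3 are separated by 1 protein-coding gene, PINLYP, in GRCg7b, the probe sets used for them carry the same cluster number in their names, and whether they read the same RNA was not tested. In the dim band of the wider list, families described above also had genes past a threshold. CA10, by name of the carbonic anhydrase gene family, had 44.0 on paddy rice, under background, and 76.0 on corn. CA14 had 37.8 on paddy rice, also under background, and 90.7 on corn. SLC4A11, an SLC4 relative, had 72.5 on paddy rice and 110 on corn, a ratio of 0.659, on a single probe set. The water channel AQP2 had 59.6 on paddy rice and 27.1 on corn, under background. SLC26A1 had 19.0 on paddy rice, under background, and 46.2 on corn. CLIC6 had 44.9 on paddy rice, also under background, and 92.4 on corn. CASR had 49.1 on paddy rice and 86.3 on corn, a ratio of 0.569, but the median over its 3 probe sets was 1.77. SLC4A8, BEST3, ANO6 and AQP9 were past a threshold with both signals under background and have no measured fold. None of the 23 genes of this wider list in the bright band was past a threshold, and their ratios ran between 0.791 and 1.15. In that band 0.622% of all named genes were above 1.5 and 0.328% below 0.67.

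Probe sets of the same gene often differed in direction. Of the 42 transport genes, 18 had more than 1 probe set in the middle and bright bands, and in 10 of these the probe sets lay on both sides of a ratio of 1. The SD between probe sets of the same transport gene was 0.20 on the log2 scale over those 18 genes. In the bright band alone it was 0.19 over 8 transport genes, against 0.16 over all named genes. A further 17 genes had 1 probe set in all, SLC26A6, SLC26A4 and SCNN1B among them, so no gene below 0.67 had a second reading.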

How the data were processed

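The authors hybridised pooled ileal RNA (3 birds, 1 chip per diet) to Affymetrix GeneChip Chicken Genome Arrays and obtained signals with the MAS5 algorithm. The deposited values are linear signal intensities, 1 for each probe set and without detection calls, which the authors had scaled; their mean was 500.1 on both arrays once 2% had been trimmed at each end. Intensity carries no count, so the number of arrays limits the precision.

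Of 37693 chicken probe sets, 27166 had 1 gene in the platform annotation, 10350 had none and 177 with several were left unnamed. Current symbols were taken through Entrez identifiers with RefSeq of GRCg7b (26851 probe sets), used for names and gene order only. The background level was the 95th percentile of 689 probe sets not marked as chicken, control or reporter. No further scaling was applied. No test was possible with 1 array per diet, and ratios above 1.5 or below 0.67 were counted on each gene's brightest probe set.

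The members, lists and rules were chosen with earlier results of these data known. Signals are given in full for genes past a threshold, for the 2 brightest of each route and for genes whose probe sets disagree, and for most others too. Of the wider list, genes past a threshold at or above the median signal are named, and GUCA2B, NR3C2, NEDD4L and genes of its dim band were added after their values were seen.

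The alternatives were filters at the median and the 75th percentile of signal, median centring, quantile normalization, loess centring (fraction 0.3), an offset equal to the 25th percentile of signals, the median over probe sets, no shared probe sets, and thresholds of 2 and 0.5. Leaving out genes with both signals under background was added after seeing the data. Counting was tried on simulated signals with noise of a chosen size, and only bright band genes were scored. No transport gene past a threshold lay in that band, so the trial cannot speak for those calls. The work used Python 3.11.15 with pandas 2.3.3 and numpy 2.4.6, statsmodels 0.14.6 for loess, scipy 1.17.1, and matplotlib 3.10.9 for figures.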

Additional observations from a re-analysis of the deposited data

How the results depend on the processing

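Median centring, quantile normalization and loess centring called the same 5 genes, SLC4A9 and CLCN2 above 1.5 and SLC26A6, SLC26A4 and SCNN1B below 0.67. The count above 1.5 was 1 with the filter at the median signal (SLC4A9), 0 at the 75th percentile, 1 without shared probe sets (CLCN2) and 0 at a threshold of 2. The count below 0.67 was 1 with the filter at the median (SLC26A6) and 0 at the 75th percentile. SCNN1B was at 0.924 with the 25th percentile of signals added. Without shared probe sets SLC12A7 was also below 0.67, on a probe set with both signals under background, and with the median over probe sets AQP8 replaced CLCN2 above 1.5, its second probe set having both signals under background.

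The median log2 ratio of all 42 genes stayed between -0.076 and -0.025 over the settings. That of sodium entry was 0.035 with the filter at the median or without undetected genes, both of which drop SCNN1B, and -0.25 with the median over probe sets. The bicarbonate median was -0.064 with the median over probe sets, and the water channel median was -0.084 with the filter at the median or without undetected genes, both of which drop AQP4. Medians also crossed 0 for the sodium pump (-0.0033 to 0.074), the carbonic anhydrases (-0.071 to 0.032) and the potassium channels (-0.10 to 0.043). In the wider list, 3 of 43 genes were above 1.5 and 3 below 0.67 with the filter at the median (6.98% each, against 1.88% and 1.72% of all named genes), where 5 and 12 of 61 were without it (8.20% and 19.7%, against 8.28% and 8.64%). No paired analysis was possible because each diet has 1 array. Changes in genes with signals near background could not be measured at this sensitivity.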
